A study of Arabidopsis thaliana with 12 samples.

Results

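In Arabidopsis thaliana seedlings, 184 of 13356 measured genes (1.38%) had lower transcript levels when the SnRK1 subunit SNF4 was silenced, both in darkness and in light. They were chosen by 3 conditions on the arrays themselves. The mean of amiR-SNF4 seedlings had to lie below that of wild type by 1 or more on the log2 scale in each growth condition. The 3 silenced arrays had to lie below all 3 wild-type arrays in each condition. Genes whose wild-type level was higher in darkness than in light by 1.5 or more were left out, which removed 19 of 203 genes (1.52% of all) that met the first 2 conditions. The differences between amiR-SNF4 and wild type therefore chose the genes, and they are given below as a description with no test.

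Whole-seedling RNA was hybridised to 12 ATH1 arrays from Affymetrix, in which a set of short probes reads each transcript. The 4 groups of 3 arrays were amiR-SNF4 seedlings in darkness, wild-type seedlings in darkness, amiR-SNF4 seedlings in light and wild-type seedlings in light. All were of the Col-0 background, and amiR-SNF4 carried an inducible artificial microRNA against SNF4. Every group, wild type included, received 5 µM β-estradiol on medium with 0.5% sucrose at 22 °C, so the inducer itself did not separate the groups. Seedlings of all groups were 5 days past germination, and the light-grown ones are also labelled as 7 days after sowing. A photoperiod of 8 h light and 16 h dark is given for all groups, the dark-grown ones included. How it applied to seedlings grown in darkness is not clear. Sample labels state a light intensity of 120, whereas the design text states 400, in differing units, and which applied is not known. Whole seedlings were taken 4 h into the light period, which is likewise given for all groups. The labels do not say how many transgenic lines stand behind amiR-SNF4. The labels name no uninduced amiR-SNF4 line and no line with another microRNA, so silencing and the presence of the transgene cannot be told apart. No probe set of SNF4 itself was analysed here, so the labels could not be checked against the silenced transcript. The titles call the arrays biological replicates without naming separate cultures, so p-values here reflect only the variation among these 3 arrays a group, which may be technical.

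SnRK1 is the plant relative of yeast SNF1 and animal AMPK, a protein kinase that is active when carbon and energy run short. A catalytic alpha subunit is joined by a beta subunit and by SNF4, the plant form of the gamma subunit, which activates the complex. Active SnRK1 is known to favour the breakdown of reserves and to restrain growth and biosynthesis.

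The intensities of a probe set were made comparable between arrays by quantile normalization, and levels are log2(intensity + 16). Array medians before this step spanned 39.4 to 99.5, a 2.52-fold range, and arrays of 1 group correlated at 0.961 to 0.986 afterwards. Summed intensities of the root hair markers EXPA7 and EXPA18, the 2 found by name of 7 listed, were 21.7 to 25.5 in amiR-SNF4 seedlings and 52.9 to 78.7 in wild type in darkness. In light these sums were 64.7 to 83.0 in amiR-SNF4 seedlings and 90.9 to 142 in wild type. Taken singly, EXPA18 differed by -1.12 in darkness and -0.62 in light, without overlap of the genotypes. EXPA7 differed by -0.47 and -0.37, with overlap in both conditions. RCA, the Rubisco activase of green tissue and the only mesophyll marker found by name, spanned 976 to 1582 in amiR-SNF4 seedlings against 1522 to 2344 in wild type in darkness, and 5322 to 5737 against 6218 to 6816 in light. The root marker PYK10 spanned 3822 to 6027 in amiR-SNF4 seedlings against 4334 to 5782 in wild type in darkness, and 4003 to 4358 against 4903 to 6269 in light. The seed markers PAP85 and M17 summed to 588 to 2403 in amiR-SNF4 seedlings against 983 to 2317 in wild type in darkness, and to 16.3 to 32.6 against 12.3 to 44.6 in light. None of these markers was at 0, but some were close to the lowest level that the added 16 allows. In light M17 had mean levels of 4.03 in amiR-SNF4 seedlings and 4.42 in wild type. EXPA18 and EXPA7 had 4.72 and 4.81 in amiR-SNF4 seedlings in darkness. No listed marker of epidermis, phloem or xylem was found by name, and 8730 probe sets had no gene name here. The part of these markers in the results was not tested. In whole seedlings, fewer cells of a type and less RNA per cell cannot be told apart.

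Across the 184 genes the median difference, amiR-SNF4 minus wild type, was -1.68 in darkness, or 3.20-fold lower, with a range of -4.12 to -1.01. In light the median was -1.28, or 2.43-fold lower, with a range of -3.34 to -1.002. Over all 13356 genes the medians were -0.03 in darkness and -0.03 in light. A fall of 1 or more without overlap was met by 844 genes in darkness (6.32%) and by 333 in light (2.49%), and the 184 genes were 21.8% of the 844 and 55.3% of the 333. By the same measure 461 genes (3.45%) were higher in amiR-SNF4 seedlings in both conditions. All 184 were also lower by limma at an adjusted p under 0.05 in both conditions, against 16.5% of all genes in darkness and 9.95% in light, and nothing is read from that count because the same contrasts chose the genes.

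**Figure D1:**
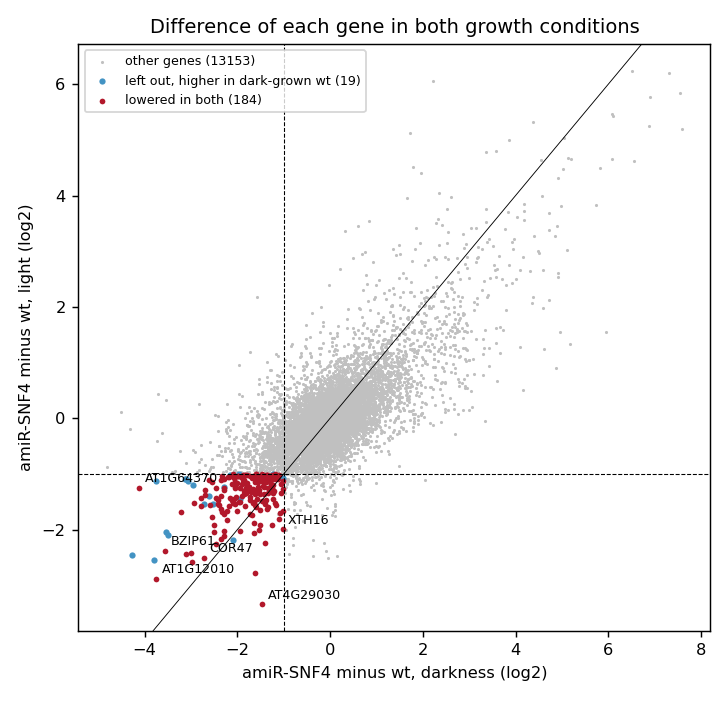
Difference between amiR-SNF4 and wild type, in log2 units, in darkness (x axis) and in light (y axis) for each measured gene, with the 184 genes in colour. The coloured points lie below -1 on both axes, and 151 of them were farther below wild type in darkness.

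The threshold cut through a continuum. The 3 genes just inside it were AT3G14240 (-1.18 in darkness, -1.002 in light), AT1G11820 (-1.60, -1.005) and AT5G05180 (-1.60, -1.01). Just outside lay AT1G19835 (-1.997, -0.99), AT2G35880 (-1.32, -0.99) and the endoglucanase family gene GH9B8 (-1.21, -0.99). AKINBETA1, a beta subunit of SnRK1, also stayed outside, with -1.75 in darkness and -0.96 in light. Its wild-type level was 10.98 in darkness and 9.36 in light. This excess in darkness was past the limit for leaving genes out, so AKINBETA1 would have been excluded at any fall in light.

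The genes were brighter than most. Their median level over all arrays was 7.13, against 6.10 for all genes, and 148 of 184 (80.4%) lay above the median of all genes. The added 16 sets a floor on this scale, and a gene close to that floor cannot fall by 1. In 36 of the genes the amiR-SNF4 mean lay below 5 in at least 1 condition, and in 18 in both, so their differences are understated. Of the 184, 36 carried a gene symbol of their own in the platform annotation and 148 had only a locus number there. Synonyms in the RefSeq gene table named a few of these.

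Members with a name in the annotations used and a known role are described below by that role. The groupings were made by hand and not tested for enrichment. Family counts take in only genes found by symbol or synonym on a probe set of their own, so some genes of a family may be missing. Microtubules are built from alpha- and beta-tubulin, and 3 of 5 measured beta-tubulin genes, TUB5, TUB1 and TUB7, were among the 184. TUB5 had normalized intensities of 157, 186 and 173 in amiR-SNF4 seedlings, against 1241, 1053 and 1325 in wild type in darkness. Its values in light were 445, 431 and 361 in amiR-SNF4 seedlings, against 980.2, 1164 and 1156 in wild type. Silenced arrays were thus low in both conditions, and the gap was wider in darkness (-2.70, 6.49-fold) than in light (-1.38, 2.61-fold).

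TUB1 was dimmer, at 51.0, 47.9 and 55.9 in amiR-SNF4 seedlings, against 298, 249 and 257 in wild type in darkness. In light it had 29.5, 21.0 and 21.7 in amiR-SNF4 seedlings, against 96.0, 81.3 and 101 in wild type. Both genotypes were lower in light than in darkness, and the genotypes differed by -2.07 in darkness and -1.44 in light. TUB7 differed by -1.24 in darkness and -1.08 in light. The beta-tubulin genes not included were TUB6, with -2.004 in darkness but -0.97 in light, and TUB9, with -0.46 and -0.45. The 2 alpha-tubulin genes found by name were not included either. TUA6 differed by -0.89 in darkness and -0.42 in light, and TUA1 by -0.03 and 0.05.

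ATMAP65-6 belongs to the MAP65 family of proteins that bind and cross-link microtubules. Its intensities were 91.8, 67.2 and 50.5 in amiR-SNF4 seedlings, against 481, 361 and 611 in wild type in darkness. The values in light were 85.9, 89.9 and 72.9 in amiR-SNF4 seedlings, against 182, 194 and 233 in wild type. The difference was -2.54 in darkness and -1.14 in light. AT3G23090, which the gene table names WDL3, a microtubule-associated protein known to act in hypocotyl elongation, differed by -2.28 and -1.10. Both were lower in amiR-SNF4 seedlings by more in darkness.

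LIM-domain proteins of plants bind and bundle actin filaments, and 2 of 5 measured genes of this family were included. WLIM2a had 42.8, 63.9 and 57.1 in amiR-SNF4 seedlings, against 266, 282 and 218 in wild type in darkness. The light arrays read 207, 203 and 193 in amiR-SNF4 seedlings, against 685, 566 and 547 in wild type. Silenced seedlings in light lay just below wild type in darkness, and the gap was -1.95 in darkness and -1.499 in light. PLIM2b differed by -1.45 in darkness and -1.06 in light. Of the other LIM genes, WLIM1 differed by -1.18 in darkness and -0.31 in light, WLIM2b by -0.90 and -0.27, and PLIM2a by 0.16 and -0.19.

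**Figure D2:**
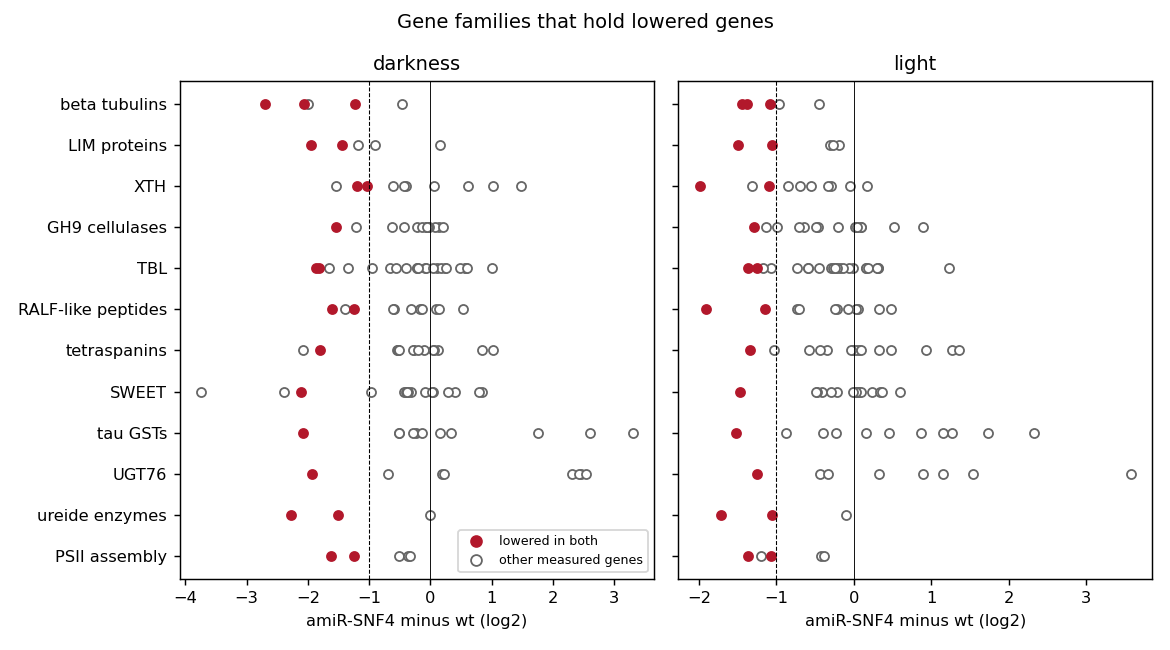
Difference between amiR-SNF4 and wild type in log2 units for the measured genes of the families that hold named members, in darkness and in light, with members marked apart from the other genes of the family. The dashed line marks -1. In the beta-tubulin family 3 of 5 genes are members, and the other families shown hold 1 or 2.

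Named members of the cell wall and cell surface are described next. XTH enzymes cut and rejoin xyloglucan chains of the wall, and XTH16 and XTH33 were included of 10 measured. XTH16 had 132, 137 and 112 in amiR-SNF4 seedlings, against 291, 310.1 and 229 in wild type in darkness. Under light it read 116, 119 and 106 in amiR-SNF4 seedlings, against 547, 509 and 449.9 in wild type. This gene was among the few that differed more in light (-1.99) than in darkness (-1.03). XTH33 differed by -1.20 in darkness and -1.09 in light, and the 8 other XTH genes ranged from -1.53 to 1.48 in darkness and from -1.31 to 0.17 in light.

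GH9B7 encodes an endoglucanase-family enzyme of glycosyl hydrolase family GH9, of which 1 of 15 measured genes was included. It had 243, 290.0 and 242 in amiR-SNF4 seedlings, against 775, 736 and 834 in wild type in darkness. In light the intensities were 407, 342 and 385 in amiR-SNF4 seedlings, against 896, 919 and 1036 in wild type. The gap was -1.54 in darkness and -1.30 in light. The TBL family holds enzymes that add acetyl groups to wall polysaccharides, and TBL25 and TBL45 were included of 23 measured. TBL25 differed by -1.87 in darkness and -1.37 in light. TBL45 had 32.2, 30.1 and 36.7 in amiR-SNF4 seedlings, against 177, 157 and 139.7 in wild type in darkness. In light its intensities read 287, 235 and 271 in amiR-SNF4 seedlings, against 635, 615 and 708 in wild type. The silenced arrays in light exceeded the wild-type arrays in darkness, so for TBL45 the growth condition separated the arrays more than the genotype did.

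SKU5 is a membrane-anchored glycoprotein related to copper oxidases that acts in directional root growth. Its intensities were 636, 445 and 328 in amiR-SNF4 seedlings, against 1638, 1440.0 and 1861 in wild type in darkness. Its values in light were 955, 858 and 749 in amiR-SNF4 seedlings, against 2058, 1842 and 2718 in wild type. The gap was -1.82 in darkness and -1.34 in light. AT3G52060, named AtGnTL in the gene table for its likeness to N-acetylglucosaminyl transferases, differed by -2.34 in darkness and -1.40 in light. The tetraspanin membrane protein gene TET7 differed by -1.81 and -1.34, and SAH7 by -1.81 and -1.17.

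THE1, or THESEUS1, is a receptor kinase that senses the state of the cell wall. It had 97.5, 79.0 and 75.4 in amiR-SNF4 seedlings, against 339, 277 and 339 in wild type in darkness. In light it had 117, 87.1 and 102 in amiR-SNF4 seedlings, against 263, 245 and 280.5 in wild type. The gap was -1.74 in darkness and -1.24 in light, with no overlap between the genotypes. Its relative FER, or FERONIA, was not included, at -1.09 in darkness and -0.64 in light, and ANX1 and ANX2, known from pollen tubes, lay near the floor of the scale in all 4 groups.

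**Figure D3:**
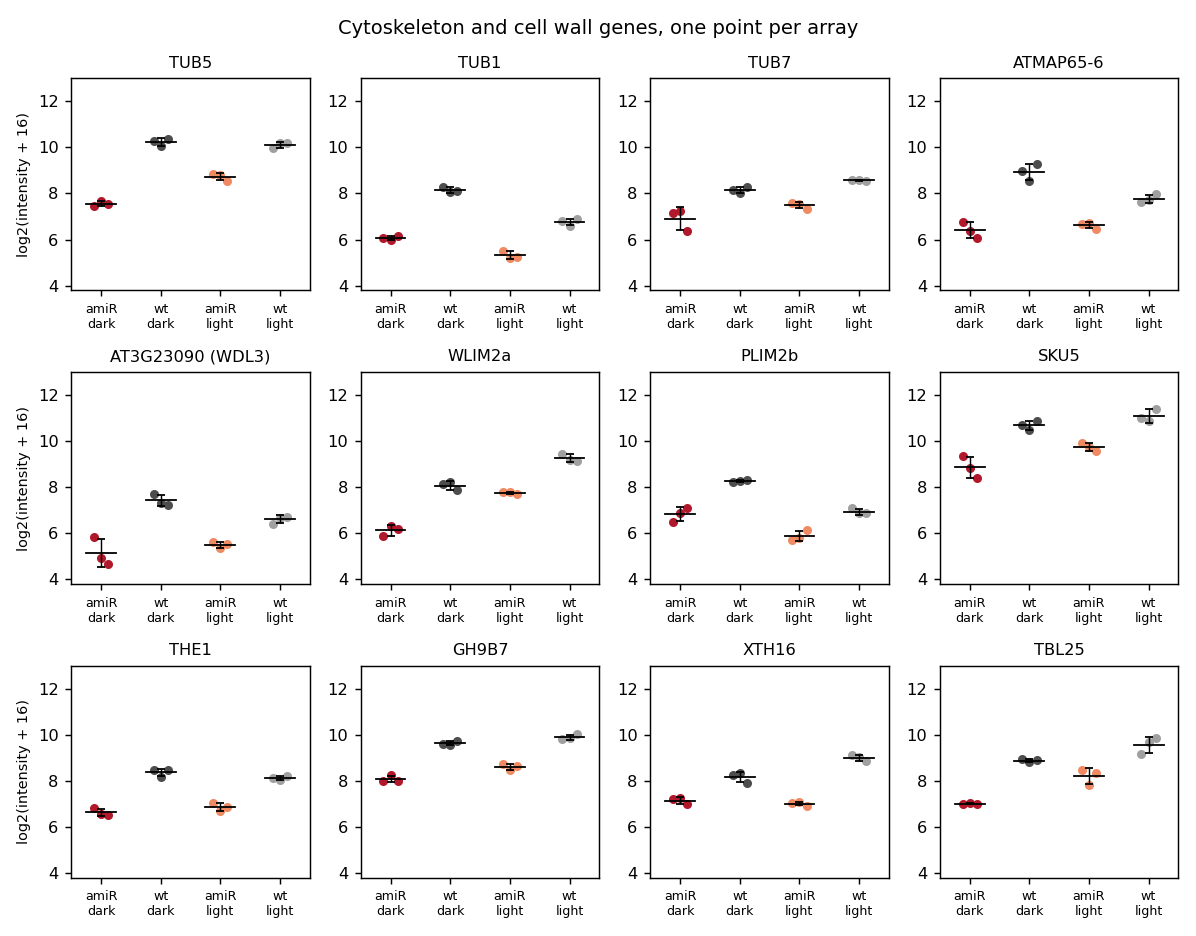
Level of 12 cytoskeleton and cell wall genes on each array, as log2(intensity + 16), by group, with amiR-SNF4 left of wild type in each condition. Points are arrays, the long line is the mean and the bars are SD (n = 3), and in every panel the silenced arrays lie below the wild-type arrays of the same condition, by -2.70 in darkness and -1.38 in light for TUB5.

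RALF peptides are secreted signals, some of which are ligands of THE1's receptor family. RALFL22 had 176, 216 and 296 in amiR-SNF4 seedlings, against 1076, 680.1 and 510.3 in wild type in darkness. The values in light were 217, 276 and 253 in amiR-SNF4 seedlings, against 558, 577 and 566 in wild type. Its gap was -1.61 in darkness and -1.15 in light. RALFL27 was dim, with amiR-SNF4 means of 4.30 in darkness and 4.11 in light against 5.55 and 6.02 in wild type, close to the floor. The other 9 of 11 measured RALF-like genes ranged from -1.40 to 0.54 in darkness and from -0.73 to 0.48 in light.

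Named members among hormone-related and developmental genes follow. BAT1, a brassinosteroid-related acyltransferase known to lower active brassinosteroids, had 22.4, 3.57 and 2.00 in amiR-SNF4 seedlings, against 179, 194 and 246 in wild type in darkness. The light arrays read 12.8, 12.8 and 22.1 in amiR-SNF4 seedlings, against 88.3, 80.1 and 86.9 in wild type. It was among the 3 genes with the largest excess of the dark difference (-3.21, 9.26-fold) over the light difference (-1.68, 3.20-fold), with silenced means close to the floor.

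UGT76C2 attaches glucose to cytokinins, which inactivates them. Its intensities were 127, 175 and 126 in amiR-SNF4 seedlings, against 411, 644 and 752 in wild type in darkness. Under light it read 82.2, 136 and 65.8 in amiR-SNF4 seedlings, against 263, 287 and 179.5 in wild type. The gap was -1.93 in darkness and -1.25 in light. Of the 7 other UGT76 genes found by name, several lay the other way, up to 2.53 in darkness and 3.58 in light. UGT76C1 was lower in amiR-SNF4 seedlings as well, by -0.70 in darkness and -0.43 in light. AT3G53250, a SAUR gene of the auxin-responsive family (SAUR57), differed by -1.67 in darkness and -1.74 in light. Its silenced means of 4.26 in darkness and 4.86 in light lay close to the floor. Wild type in darkness was spread widely for this gene, with intensities of 69.7, 63.5 and 17.4.

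STOMAGEN, a secreted peptide that promotes stomata, had 18.5, 56.8 and 45.5 in amiR-SNF4 seedlings, against 153, 204 and 157 in wild type in darkness. In light the intensities were 71.4, 60.6 and 81.0 in amiR-SNF4 seedlings, against 212, 179 and 148 in wild type. The genotypes did not overlap, with a gap of -1.79 in darkness and -1.16 in light. UPB1, a transcription factor that sets the balance of dividing and differentiating root cells, differed by -1.66 and -1.03. ULT1, a regulator of meristem size, differed by -1.41 and -1.54. The kinase gene WNK9 differed by -1.53 and -1.07.

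BZIP61 encodes a bZIP transcription factor and had the second largest mean fall of the 184. Its intensities in darkness were 26.4, 22.5 and 5.98 in amiR-SNF4 seedlings, against 322, 379 and 422 in wild type. In light its intensities read 40.3, 28.3 and 9.55 in amiR-SNF4 seedlings, against 190.3, 190.2 and 196 in wild type. The third silenced array was the lowest in both conditions, and all silenced arrays lay far below wild type (-3.56, 11.8-fold in darkness, and -2.38, 5.21-fold in light). The other 8 measured genes of the bZIP symbol group ranged from -0.52 to 1.81 in darkness and from -0.09 to 2.201 in light.

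Metabolic genes included consecutive steps of purine breakdown. ALN, allantoinase, opens the allantoin ring, and AAH, allantoate amidohydrolase, then releases ammonia from allantoate. AAH had 112, 66.6 and 80.8 in amiR-SNF4 seedlings, against 439.6, 425 and 568 in wild type in darkness. Its values in light were 89.6, 84.0 and 75.1 in amiR-SNF4 seedlings, against 268, 312 and 349 in wild type. ALN had 77.6, 87.5 and 93.8 in amiR-SNF4 seedlings, against 323, 225 and 285 in wild type in darkness. In light it had 93.7, 74.7 and 95.3 in amiR-SNF4 seedlings, against 199, 199 and 201 in wild type. Silenced arrays were low for both genes. The gap was -2.28 in darkness and -1.72 in light for AAH, and -1.51 and -1.06 for ALN. UGLYAH, which acts on the product of AAH, differed by -0.0034 in darkness and -0.10 in light, with overlapping groups.

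SWEET16, a sugar transporter of the vacuole membrane, had 72.8, 80.2 and 106 in amiR-SNF4 seedlings, against 538, 418 and 337 in wild type in darkness. The values in light were 74.0, 95.0 and 57.7 in amiR-SNF4 seedlings, against 263, 196 and 249.9 in wild type. Its gap was -2.12 in darkness and -1.47 in light, and no other of the 16 measured SWEET genes was included. SWEET11 lay farther below wild type in darkness, at -3.74, but at -0.41 in light, and SWEET17 differed by 0.05 and 0.36. GSTU26, a tau-class glutathione transferase, differed by -2.09 in darkness and -1.53 in light. Its family lay on both sides of 0, with GSTU25 at 3.30 and 1.15 and GSTU22 at 2.61 and 2.33. SCPL34, a serine carboxypeptidase-like gene, differed by -1.64 and -1.51, and TRI, named for tropinone reductase, by -1.99 and -1.03.

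COR47, a cold- and drought-responsive dehydrin, was the brightest of the 12 genes with the largest mean falls. Its intensities were 587, 532 and 673 in amiR-SNF4 seedlings, against 4484, 3696 and 3940.4 in wild type in darkness. The light arrays read 292, 282 and 271 in amiR-SNF4 seedlings, against 1641, 1622 and 1753 in wild type. The gap of -2.73 (6.62-fold) in darkness and -2.503 (5.67-fold) in light was of like size in both conditions.

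Some named members encode plastid or photorespiratory proteins. PSB27 and LPA19, which the gene table also names Psb27-H1, take part in assembly and repair of photosystem II. PSB27 was bright, with 577, 1110.0 and 784 in amiR-SNF4 seedlings, against 1615, 2218 and 1929 in wild type in darkness. Under light it read 1537, 1447 and 1481 in amiR-SNF4 seedlings, against 3568, 3119 and 2779 in wild type. LPA19 had 31.8, 55.3 and 65.0 in amiR-SNF4 seedlings, against 175, 261 and 134 in wild type in darkness. In light the intensities were 68.8, 77.0 and 104 in amiR-SNF4 seedlings, against 295, 238 and 188 in wild type. The gaps were -1.24 and -1.07 for PSB27, and -1.61 and -1.36 for LPA19. Genes LPA1, LPA2 and LPA66, whose products also act in building photosystem II or in plastid RNA processing, differed by -0.52 to -0.33 in darkness and -1.20 to -0.38 in light.

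HPR, the peroxisomal hydroxypyruvate reductase of photorespiration, had 443, 475 and 310.3 in amiR-SNF4 seedlings, against 1211, 1972 and 2129 in wild type in darkness. In light its intensities read 1379, 1211 and 1205 in amiR-SNF4 seedlings, against 2729, 2566 and 3119 in wild type. The gap was -2.05 in darkness and -1.14 in light, and silenced arrays were low in both. CYTC6A, a cytochrome of the thylakoid lumen, differed by -1.33 and -1.10. hemf2, named for coproporphyrinogen oxidase of the tetrapyrrole pathway, differed by -1.39 and -1.47. No member lay on the plastid genome (69 genes measured) or the mitochondrial genome (11 measured). Members made up 1.38% of all measured genes, so their absence among so few genes is not read as a result.

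Of the 12 genes with the largest mean falls, 9 had only a locus number as symbol in the annotation used, like 148 of the 184. This is a limit of that annotation and does not mean that these genes lack a known role. AT1G12010 had the largest mean fall, with 10.8, 10.5 and 20.5 in amiR-SNF4 seedlings, against 389, 336 and 429 in wild type in darkness. Its values in light were 22.0, 21.0 and 31.7 in amiR-SNF4 seedlings, against 303, 235 and 321 in wild type. This was a difference of -3.75 (13.5-fold) in darkness and -2.89 (7.39-fold) in light. AT4G38690 differed by -2.98 and -2.59, AT1G31710 by -3.12 and -2.44, and AT3G53980 by -3.01 and -2.43. The rest of the 12 largest were AT5G56100 (-2.47, -2.27), AT5G44680 (-2.498, -2.04) and AT5G07030 (-2.35, -2.17), beside AT1G64370 and AT4G29030 described below.

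**Figure D4:**
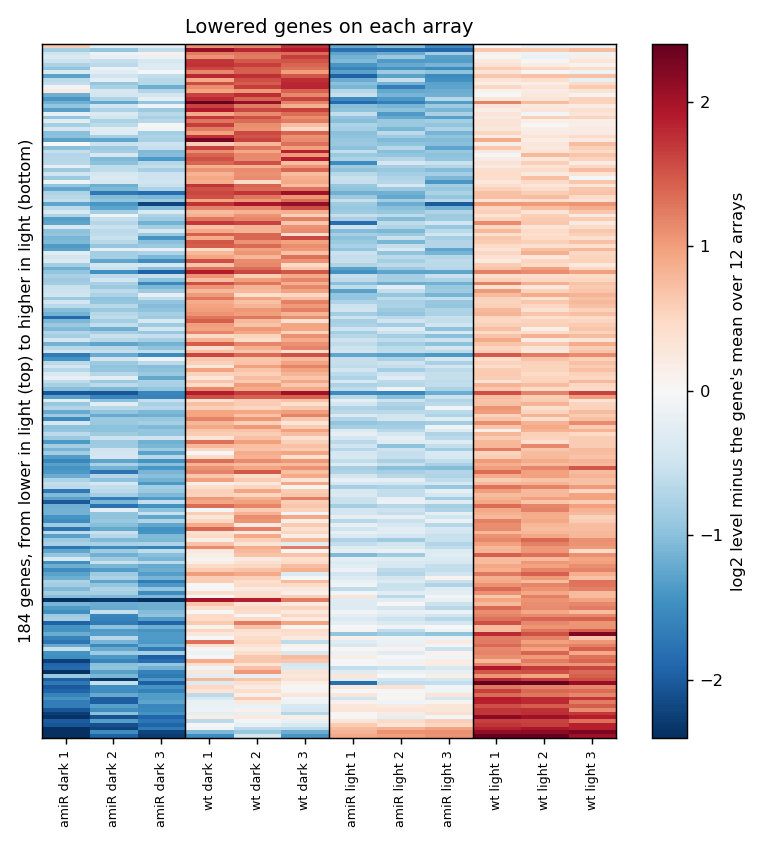
Level of each of the 184 genes on each of the 12 arrays as the deviation from the gene's mean, in log2 units, with amiR-SNF4 arrays left of wild-type arrays within each condition and the genes ordered by their growth-condition effect. Deviations past the ends of the colour scale take its end colours. Within each condition the silenced columns lie below the wild-type columns in every row, since this separation chose the genes, and rows differ in whether the light or the dark columns are higher.

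AT5G44020, one of the 5 members with the highest intensity on their own probe sets, had 1129, 1555 and 1424 in amiR-SNF4 seedlings, against 5293, 5014 and 4408 in wild type in darkness, with a gap of -1.84. In light it had 1381, 1280.2 and 1469 in amiR-SNF4 seedlings, against 4408, 3951 and 4098 in wild type. The gap was -1.58. AT5G14120 differed by -1.45 and -1.495, and AT3G16370 by -2.62 and -1.11. These genes lie far above the floor, so the added constant bears little on their values.

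Genes with a second probe set allowed a look at values the selection had not used. AT1G31710 had on its second probe set intensities of 27.1, 2.69 and 2.26 in amiR-SNF4 seedlings, against 79.4, 58.9 and 127 in wild type in darkness. In light these were 17.9, 6.42 and 4.72 in amiR-SNF4 seedlings, against 53.5, 43.1 and 43.6 in wild type. The groups did not overlap, and the differences of -2.04 and -1.32 were smaller than the -3.12 and -2.44 of the probe set used. AT1G22330 had 12.9, 12.3 and 8.58 in amiR-SNF4 seedlings, against 75.6, 80.2 and 56.6 in wild type in darkness. In light it had 16.3, 16.4 and 20.3 in amiR-SNF4 seedlings, against 111, 78.2 and 70.7 in wild type. Its second probe set gave -1.67 in darkness and -1.59 in light, close to the -1.67 and -1.53 of the probe set used. These probe sets read the same RNA of the same arrays, so they repeat the measurement and not the experiment.

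The gap was wider in darkness for 151 of the 184 genes (82.1%) and in light for 33. Of the 974 genes that fell by 1 or more without overlap in either condition, 83.1% also had the wider gap in darkness, against 49.3% of all genes. The 974 genes include the 184, and 844 of them passed in darkness against 333 in light. Their share with the wider gap in darkness is thus largely set by the thresholds. These shares rest on the contrasts that chose the genes, so nothing is read from them. The members' median light-minus-dark difference of the gaps was 0.39. For 51 genes the gaps lay within 0.25 of each other. A gap of -2 or lower was seen in darkness for 59 genes, in light for 17 and in both for 11. Within-group SDs of the genes had a median of 0.25 in darkness and 0.15 in light. AT1G64370 showed the largest contrast, with 12.9, 14.3 and 8.49 in amiR-SNF4 seedlings, against 574, 530.1 and 335 in wild type in darkness. The values in light were 105, 108 and 117 in amiR-SNF4 seedlings, against 275, 299.6 and 277 in wild type. Silenced seedlings were near the floor in darkness and well above it in light, so the gap was -4.12 in darkness and -1.25 in light.

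The opposite order was clearest for AT4G29030. It had 8.92, 39.1 and 4.92 in amiR-SNF4 seedlings, against 49.1, 90.2 and 72.3 in wild type in darkness. The light arrays read 7.27, 38.4 and 38.2 in amiR-SNF4 seedlings, against 443, 429 and 332 in wild type. Wild type was far higher in light while silenced seedlings stayed low, so the gap was -1.47 in darkness and -3.34 in light. AT4G26010 was of the same kind, at -1.62 and -2.78. AT4G29030 lies directly beside another member, AT4G29020, in gene order on chromosome 4, and that neighbour had the reverse pattern, -2.33 in darkness and -1.03 in light. It was the only directly adjacent pair, and 9 pairs lay within 5 genes of each other. By chromosome, 52, 20, 40, 31 and 41 members lay on chromosomes 1 to 5, between 0.918% and 1.60% of the measured genes of each.

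The effect of the growth condition itself, light minus dark averaged over both genotypes, was not used to choose the genes except through the removal of genes much higher in dark wild type. The rule also bears on it through level and spread. A fall of 1 needs a gene above the floor, and the no-overlap condition limits the spread among arrays. The growth effect was tested with limma over all 13356 genes. At an adjusted p under 0.05, 65 of the 184 genes were higher in light (35.3%) and 40 lower (21.7%), while 79 were not called. Over all genes 23% were called higher and 21.7% lower, and over the 13011 genes that stay under the exclusion limit the shares were 23.6% and 19.6%. These shares were not matched for level, and 80.4% of the members lay above the median level of all genes. The excess of higher calls is therefore given as a description. A change of 1 or more on the log2 scale accompanied 26 of the higher and 6 of the lower calls. The members' effects ranged from -1.38 to 3.45 with a median of 0.02, against -0.02 over all genes. Removing genes much higher in dark wild type cuts the lower side of this range. The matching counts over all genes are not given, so the imbalance of 26 to 6 is not read as a trait of the members.

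This split depended on the scaling of the arrays. With no normalization, 89 of the genes were called higher in light and 9 lower, and with scaling on the hybridization controls 144 and 1. Under both scalings far fewer of all genes were called lower too, so these counts are not read as a trait of the members. Those scalings moved the median growth effect of all genes to 0.21 and 0.59. Relative to all genes the members' median was higher by 0.04 under quantile normalization, 0.22 with none and 0.33 with the controls. Directions below therefore hold relative to the bulk of genes on each array.

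Among genes called higher in light, TBL45 had the smallest p, with an effect of 2.23 ± 0.09 (SE; limma, adjusted p = 5.00e-09). Its group means in light were 8.13 ± 0.14 in amiR-SNF4 seedlings and 9.38 ± 0.10 in wild type, and in darkness 5.61 ± 0.10 and 7.44 ± 0.15 (SD, n = 3 each). AT1G13930 had an effect of 3.18 ± 0.16 (SE; limma, adjusted p = 1.97e-08), with intensities in light of 1364, 1645 and 1655 in amiR-SNF4 seedlings, against 3428, 3459 and 3730.2 in wild type. In darkness this gene had 109, 262 and 152 in amiR-SNF4 seedlings, against 357, 401 and 329 in wild type. Every light array lay above every dark array, and the genotype gap was -1.18 in light and -1.07 in darkness. AT1G09750 was also higher in light, by 1.95 ± 0.10 (SE; limma, adjusted p = 2.19e-08). For AT1G29670 the effect was 1.74 ± 0.09 (SE; limma, adjusted p = 2.51e-08). AT3G62550 had the largest effect of all the members, 3.45.

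Named genes higher in light included WLIM2a, at 1.41 ± 0.11 (SE; limma, adjusted p = 4.40e-07), and HPR, at 1.15 ± 0.15 (SE; limma, adjusted p = 3.78e-05). TBL25 was higher by 0.94 ± 0.14 (SE; limma, adjusted p = 9.16e-05), PSB27 by 0.80 ± 0.15 (SE; limma, adjusted p = 0.000556) and SKU5 by 0.65 ± 0.16 (SE; limma, adjusted p = 0.00422). Smaller effects were called for TUB5, 0.53 ± 0.10 (SE; limma, adjusted p = 0.000755), TUB7, 0.49 ± 0.14 (SE; limma, adjusted p = 0.0117), GH9B7, 0.40 ± 0.09 (SE; limma, adjusted p = 0.00305), and XTH16, 0.35 ± 0.10 (SE; limma, adjusted p = 0.0138). SAH7 was higher by 1.01 ± 0.25 (SE; limma, adjusted p = 0.00521). AT3G53250 (SAUR57) had 0.64 ± 0.21 (SE; limma, adjusted p = 0.0259), a call that was lost without any 1 of 6 arrays (adjusted p 0.0524 to 0.0644, limma): amiR-SNF4 dark 1 or 3, amiR-SNF4 light 1 or 3, or wild-type light 1 or 2. Of the genes with the largest falls, AT5G44680 was higher in light by 1.29 ± 0.15 (SE; limma, adjusted p = 1.32e-05), AT4G29030 by 1.35 ± 0.26 (SE; limma, adjusted p = 0.000955) and AT1G64370 by 0.75 ± 0.13 (SE; limma, adjusted p = 0.000314).

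Effects of genes called lower in light reached -1.38. COR47 had an effect of -1.15 ± 0.09 (SE; limma, adjusted p = 5.89e-07) and PLIM2b one of -1.14 ± 0.12 (SE; limma, adjusted p = 5.66e-06). For TUB1 it was -1.07 ± 0.10 (SE; limma, adjusted p = 1.64e-06), so the beta-tubulin genes of the group went both ways between light and darkness. AT5G25280 had an effect of -1.04 ± 0.11 (SE; limma, adjusted p = 5.96e-06). With the hybridization-control scaling these 4 calls were lost.

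Other genes called lower in light depended on the scaling. UGT76C2 had an effect of -0.90 ± 0.19 (SE; limma, adjusted p = 0.00171) and AT5G56100 one of -0.90 ± 0.15 (SE; limma, adjusted p = 0.000305). XTH33 had -0.68 ± 0.13 (SE; limma, adjusted p = 0.000855), while SWEET16 had -0.49 ± 0.15 (SE; limma, adjusted p = 0.0143) and ATMAP65-6 -0.47 ± 0.15 (SE; limma, adjusted p = 0.0188). UPB1 had an effect of -0.68 ± 0.16 (SE; limma, adjusted p = 0.00408). With the hybridization-control scaling these 6 effects took the other sign, and with no normalization their calls were lost. WNK9, at -0.72 ± 0.15 (SE; limma, adjusted p = 0.00144), lost its call under both scalings. AT3G52060 (AtGnTL), at -0.88 ± 0.11 (SE; limma, adjusted p = 2.55e-05), took the other sign with the hybridization-control scaling only.

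The gaps between the genotypes are given by class of growth response as a description, since both rest on the same arrays. Genes called higher in light had median gaps of -1.56 in darkness and -1.34 in light. For genes called lower in light they were -1.95 and -1.27, and for those not called -1.72 and -1.24.

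**Figure D5:**
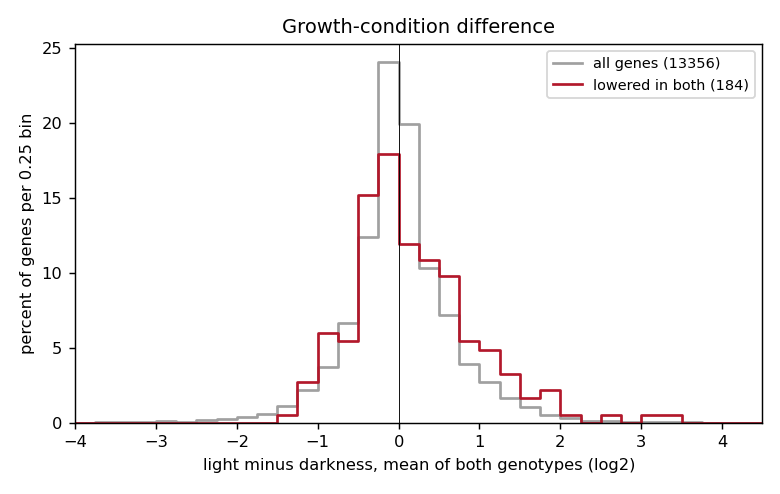
Growth-condition effect, light minus dark over both genotypes in log2 units, as the percent of the 184 genes and of all measured genes in each bin, after quantile normalization. The few genes beyond the axis are not drawn. The medians are 0.02 for the 184 genes and -0.02 for all genes.

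Functional lists were matched by symbol and synonym only, so most of the 148 members listed by locus number could not enter a list. A low count is therefore no sign that a class lacks members. Of 19 lists, 17 had a measured gene and 6 held a member. The wall loosening list of expansins and XTH enzymes held 2 members of 29 measured genes. In that list limma called 13 genes lower and 4 higher in amiR-SNF4 seedlings in darkness, and 7 lower and 3 higher in light. Its median differences were -0.40 in darkness and -0.30 in light, against -0.03 in each over all genes. Of all genes 16.5% were called lower and 14.3% higher in darkness, and 9.95% lower and 9.14% higher in light. Members were chosen on these contrasts, so the counts describe the lists only.

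The photosystem and light harvesting list held PSB27 and LPA19 of 29 measured genes. Here 11 genes were called lower in darkness with none higher, and 6 lower and 1 higher in light, and the medians were -0.17 and -0.39. The auxin list held 1 of 15, with 4 genes lower and 1 higher in darkness and 1 lower and 2 higher in light. Dehydrins and cold-responsive genes held COR47 of 9, with 3 lower and 1 higher in each condition. Sugar transport held SWEET16 of 18, with 4 lower and 2 higher in darkness and 1 lower in light. The transcription factor list, which was matched on a few family names and did not take in UPB1, held BZIP61 of 40, with 11 lower and 8 higher in darkness and 6 lower and 5 higher in light.

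By these names the other 11 lists with a measured gene held no member. Among 28 cytochrome P450 genes found by name, 2 were lower and 5 higher in darkness, 2 lower and 4 higher in light. Of 3 cell cycle genes measured, 2 were called lower in each condition.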

How the data were processed

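RNA of 12 seedling samples was measured on Affymetrix ATH1 arrays, and the authors deposited 1 linear intensity per probe set and array, made with GCOS per the submitters' processing notes. Whether these intensities had been scaled is not given in the sources used here. Groups came from the sample titles. The 64 control probe sets were set aside and the 22746 others were given the same distribution by quantile normalization of log2 values, after which 16 was added to the linear intensity before the final log2. Probe sets with 1 gene (13513) gave 13356 genes, the probe set with the highest mean standing for a gene. Of these genes, 13286 matched the RefSeq TAIR10.1 gene table by gene ID and 13351 in all. Probe sets named for several genes (503) were left out.

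Differences between genotypes describe the selection, and limma calls on them are given only as counts. The growth-condition effect was tested with limma 3.58.1 in R 4.3.3, as the mean of both genotypes in light minus that in darkness, over all genes with Benjamini-Hochberg adjustment. On simulated data for this contrast over 13356 genes, it recovered 28.4% of genes with a shift of 0.5, 89.6% with a shift of 1 and 100% with a shift of 2 (log2). Only 67, 67 and 66 genes were shifted there, and each gene had the same spread in all groups. The data had far more called genes and a wider spread in darkness, so these shares do not give the power in the data. Precision is limited by 3 arrays a group, and detection calls were not used here.

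The text names the 12 members with the largest mean fall, up to 3 of each gene list, the 4 with the smallest p in each direction of the growth effect, genes at the edge of the threshold, those with extreme contrasts between conditions, the 5 brightest, neighbours, and families. Other members with a symbol were named after their values were seen. Members and lists were chosen with earlier results of these data known. Alternatives were other scalings, constants and thresholds, other rules for probe sets, a filter on dim genes, a replicate block and leaving out each array.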

Additional observations from a re-analysis of the deposited data

How the results depend on the processing

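Direction and calls held for 601 of 628 alternative values of the growth effect of 30 genes, and for 17 genes under every alternative run. Scaling on the hybridization controls turned ATMAP65-6 to 0.49, XTH33 to 0.094, UGT76C2 to 0.10, SWEET16 to 0.46, UPB1 to 0.16, AT3G52060 to 0.092 and AT5G56100 to 0.086, and gave 8283 of all genes higher and 429 lower in light, and 144 members higher and 1 lower. No normalization gave 987 of all genes and 9 members lower, and a members' median of -1.43 in light. The 20 calls lost fell under those scalings, except that of ATMAP65-6 with a constant of 1 and those of AT3G53250 with a constant of 64 and without any 1 of 6 arrays. The rule itself depended on the constant and the threshold. A constant of 1 gave 337 genes (182 shared), with members' medians of -2.10 in darkness and -1.48 in light. A constant of 64 gave 67 genes, with medians of -1.19 and -0.98. A fall of 1.5 left 43 genes and one of 0.8 gave 353. Fewer or more genes follow from these constructions, and the cause of the scaling dependence was not tested. Leaving out 1 array gave 179 to 192 genes, medians of -1.73 to -1.64 in darkness and -1.32 to -1.27 in light, 59 to 67 members higher and 36 to 42 lower in light, and 2857 to 3054 and 2629 to 2886 of all genes. With the replicate number as a block, 64 members were higher and 40 lower, and 3027 and 2810 of all genes. Deviations of same-numbered arrays correlated at -0.33 to 0.20 over 18 pairs, and 4 of 12 arrays were closest to one of their own number, so the numbers were not taken to pair samples. Signal over background is not known for single values, and silenced levels near the floor are bounds.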

Other observations

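Probe sets to which the platform annotation used here gave neither a gene symbol nor a locus number were left out of the report. Of 8730 such probe sets, 228 (2.61%) met the same 3 conditions, and they are unnamed here.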
